A study of Mus musculus with 4 samples.

Results

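Ankrd37, Ndrg1, Mxi1, Ddit4, Stc2, Cited2, Selenbp1 and Cxcr4 are genes that earlier work links to hypoxia signalling and to the stress responses that run beside it. The genes were proposed with earlier results of these data known, and their probe sets were then taken by name, as every probe set of the array whose single platform symbol was 1 of these 8 names. This gave 17 probe sets for 8 genes, of 18194 genes on the array. All 8 genes reached a log2 value of 6, the floor used here for a measurable gene, in at least 1 array, as did 11871 genes in all.

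The study measured transcripts in scraped colon mucosa from 129S6/SvEv mice of 5 weeks, with 1 array for each of 4 genotypes. VhlΔIE/Apcmin/+ mice (5 in the design text) carry an intestine-specific knockout of Vhl and the Min mutation of Apc, and VhlΔIE mice (3) carry that knockout with no Apc mutation named. VhlF/F/Apcmin/+ mice (3) have floxed, intact Vhl with the Min mutation, and VhlF/F mice (4) have floxed Vhl alone. Below, an array is named by its Vhl status, deleted or floxed, with Apc mutant added where the Min mutation was carried. The sources used here give neither the promoter that drives Cre nor whether RNA of several mice was pooled for an array. Scraped mucosa also holds vessels, immune cells and some muscle beside the epithelium. With 1 array per genotype no difference has a replicate check and no p-value is given. In bulk tissue, fewer cells of a type and less RNA per cell cannot be told apart.

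The VHL protein is the substrate receptor of a ubiquitin ligase that marks the alpha subunits of hypoxia-inducible factors (HIF) for degradation when oxygen is present. Without VHL these subunits accumulate in normal oxygen, pair with ARNT and bind a short core motif, ACGTG or GCGTG, near their target genes. Several HIF targets then act back on growth and stress pathways. Ddit4 (REDD1) restrains the growth kinase complex mTORC1, Mxi1 opposes MYC, and Cited2 competes with HIF for its coactivators p300 and CBP.

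RefSeq promoter windows of GRCm38.p6, which run from 250 bases before a listed transcription start to 50 after it, were found for 7 of the 8 genes. They are shown for the 2 genes with the highest Vhl differences among these 7, Ankrd37 and Stc2, and for the 2 whose level differed least with Vhl deletion on wild-type Apc, Ddit4 and Cxcr4. Each is given 5′ to 3′ on the strand of its gene, and capitals mark ACGTG or GCGTG on either strand, so that on the other strand the match reads CACGT or CACGC. The windows lie at chr8:45999801-46000100 on the minus strand for Ankrd37, chr11:31370012-31370311 on the minus strand for Stc2, chr10:59951721-59952020 on the minus strand for Ddit4 and chr1:128592250-128592549 on the minus strand for Cxcr4. The Ankrd37 window lies inside the span of its gene, chr8:45996908-46000414, so its start is not the outermost end of the gene. The windows of Mxi1 also lie inside the span of that gene.
Ankrd37: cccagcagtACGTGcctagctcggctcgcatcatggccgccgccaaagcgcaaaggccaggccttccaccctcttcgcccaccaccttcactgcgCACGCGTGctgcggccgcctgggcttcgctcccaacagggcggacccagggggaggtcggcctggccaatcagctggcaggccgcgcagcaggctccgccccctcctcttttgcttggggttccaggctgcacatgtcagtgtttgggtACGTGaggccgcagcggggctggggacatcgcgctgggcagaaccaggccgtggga
Stc2: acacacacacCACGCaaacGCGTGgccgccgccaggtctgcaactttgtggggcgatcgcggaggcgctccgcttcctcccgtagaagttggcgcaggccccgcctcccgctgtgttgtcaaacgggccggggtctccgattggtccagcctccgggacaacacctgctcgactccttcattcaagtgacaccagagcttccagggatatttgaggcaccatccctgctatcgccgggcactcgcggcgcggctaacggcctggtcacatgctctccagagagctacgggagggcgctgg
Ddit4: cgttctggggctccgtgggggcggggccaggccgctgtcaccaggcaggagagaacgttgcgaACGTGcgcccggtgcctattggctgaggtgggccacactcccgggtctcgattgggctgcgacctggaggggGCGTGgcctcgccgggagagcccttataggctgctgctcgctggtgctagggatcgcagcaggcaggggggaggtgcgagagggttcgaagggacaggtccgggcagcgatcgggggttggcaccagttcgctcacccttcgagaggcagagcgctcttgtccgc
Cxcr4: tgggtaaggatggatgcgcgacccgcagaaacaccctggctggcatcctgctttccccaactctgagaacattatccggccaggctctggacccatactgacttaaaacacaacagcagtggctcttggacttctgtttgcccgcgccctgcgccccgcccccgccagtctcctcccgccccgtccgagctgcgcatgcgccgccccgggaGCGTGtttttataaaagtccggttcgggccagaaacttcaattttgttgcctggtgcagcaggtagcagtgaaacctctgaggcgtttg

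The Ankrd37 window held 4 matches. They begin at positions -241, -155, -152 and -6 relative to the start that the window uses, and the middle pair overlap on opposite strands. The Stc2 window held 2, at -240 and -231, and the Ddit4 window also held 2, at -187 and -115. The single match of Cxcr4 began at -39. Cited2 held 2 matches that form 1 palindrome, CACGTG, Selenbp1 held 3, and Mxi1 held 1 in 2 of its 3 windows. At least 1 match was thus found in 8 of the 9 windows of these genes, against 43.8% of all 32851 windows, and at least 4 matches in 3.86% of all windows. The 9 windows held 53.0% to 75.0% G and C, against a median of 52.7% over all windows. The pair CG, which both forms of the motif contain, occurred 5 times in the Selenbp1 window and 17 to 49 times in the others. Its median over all windows was 7. The part of base composition in the match counts was not tested. All 4 windows shown thus held the motif, with 4 matches for Ankrd37, 2 each for Stc2 and Ddit4 and 1 for Cxcr4. The relation of these counts to the Vhl differences was not tested. A match describes the letters of the window and does not show a binding site.

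The targeted gene Vhl read 7.03 in the Vhl deleted and 8.40 in the Vhl floxed array, and with the Apc mutation 6.56 in the deleted and 8.17 in the floxed array. Its probe set may or may not lie in the deleted part. The 4 control probe sets for Cre read 7.41 to 9.95 in the deleted arrays, against 2.97 to 4.45 in the floxed arrays. Whether this signal came from the Cre transgene or from control RNA added at hybridisation was not tested. Colonocyte markers (8 of 8 above the floor) had mean log2 values of 12.77 to 12.95, and goblet cell markers (7 of 7) of 13.01 to 13.15. The female-specific RNA Xist read 5.58 and 6.25 in the 2 deleted arrays, against 11.37 and 11.83 in the 2 floxed arrays, so sex and Vhl status cannot be told apart. Hepatocyte markers (8 of 9 above the floor) averaged 5.81 and 5.70 in the Vhl deleted arrays without and with the Apc mutation, against 8.55 and 5.66 in the matching floxed arrays, so that the Vhl floxed array stood apart. Smooth muscle markers were lower with Vhl deletion in 6 of 6 genes, with medians of -0.51 on wild-type and -0.43 on mutant Apc. Endothelial markers were higher with Vhl deletion in 10 of 10 genes on both Apc backgrounds, with medians of 1.16 and 0.89, and their summed linear level was 3589 and 3451 in the 2 deleted arrays, against 1507 and 1577 in the 2 floxed arrays. The part of sex and of these cell types in the results below was not tested.

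**Figure D1:**
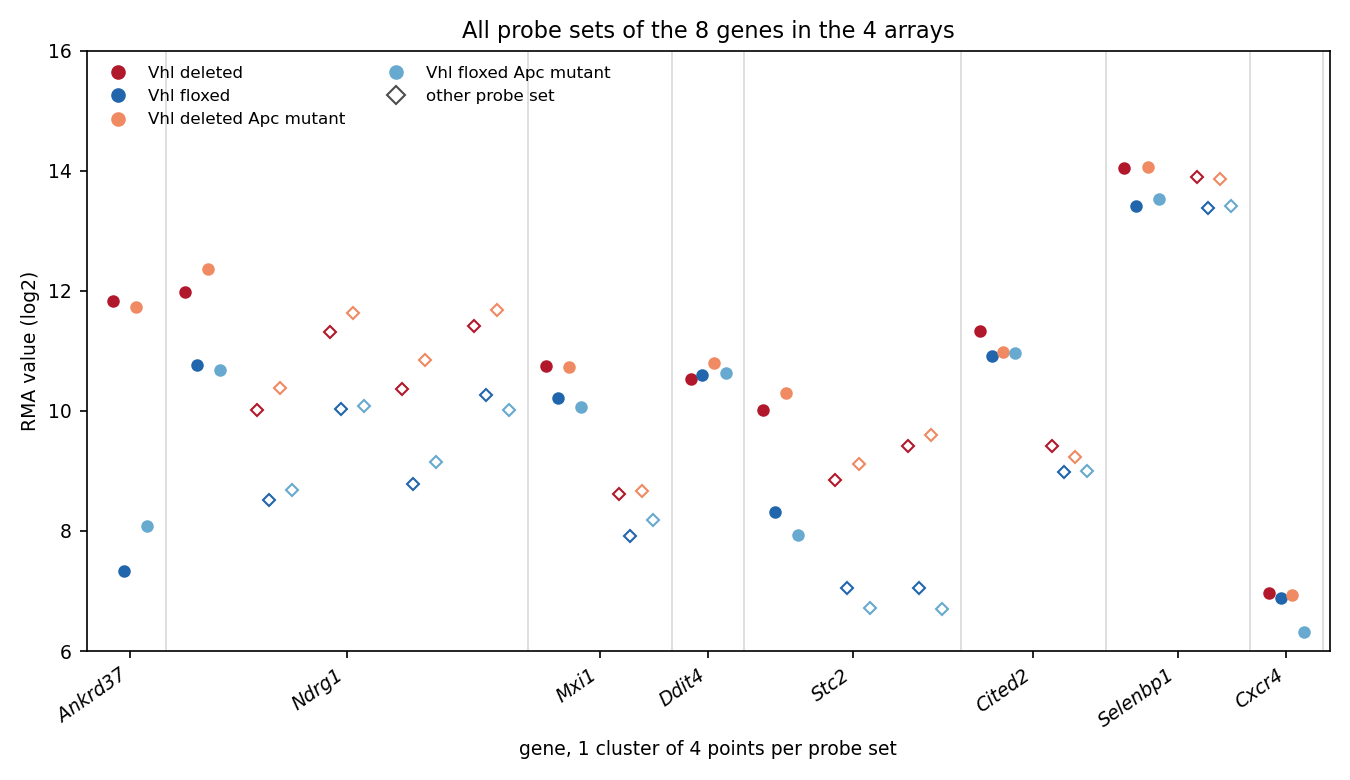
RMA log2 value of each of the 17 probe sets in the 4 arrays, 1 cluster of points per probe set. Filled circles are the probe set with the highest mean of a gene and open diamonds the others. The deleted arrays (red and orange) lie well above the floxed arrays (blue) for Ankrd37, Ndrg1 and Stc2, while the 4 points nearly coincide for Ddit4.

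Vhl deletion went with clearly higher Ankrd37, Stc2 and Ndrg1 on both Apc backgrounds, with modestly higher Mxi1 and Selenbp1, and with little or no difference in Ddit4. Cited2 differed by 0.43 on wild-type and 0.02 on mutant Apc on the log2 scale, and Cxcr4 by 0.08 and 0.61. Ankrd37 was higher by 22.5-fold on wild-type and 12.5-fold on mutant Apc, Stc2 by 3.25-fold and 5.12-fold, and Ndrg1 by 2.33-fold and 3.23-fold. These 3 of the 8 genes passed 2-fold upward in each of the 2 comparisons, and 0 passed it downward. Because the genes were chosen with results known, these counts describe them and are no independent evidence. Across all 11871 genes, the share past 2-fold on wild-type Apc was 2.27% upward and 1.60% downward, and on mutant Apc it was 2.82% and 1.52%. For both comparisons together it was 1.58% upward and 0.733% downward. Counted by probe set, 9 of 17 passed 2-fold upward in both, against 1.42% of the 20695 probe sets that reached the floor. All 9 belong to the same 3 genes, 5 to Ndrg1, 3 to Stc2 and 1 to Ankrd37, and are repeat readings of them. The median difference of the 8 genes was 0.59 on wild-type and 0.63 on mutant Apc, beside -0.02 in each for all genes.

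**Figure D2:**
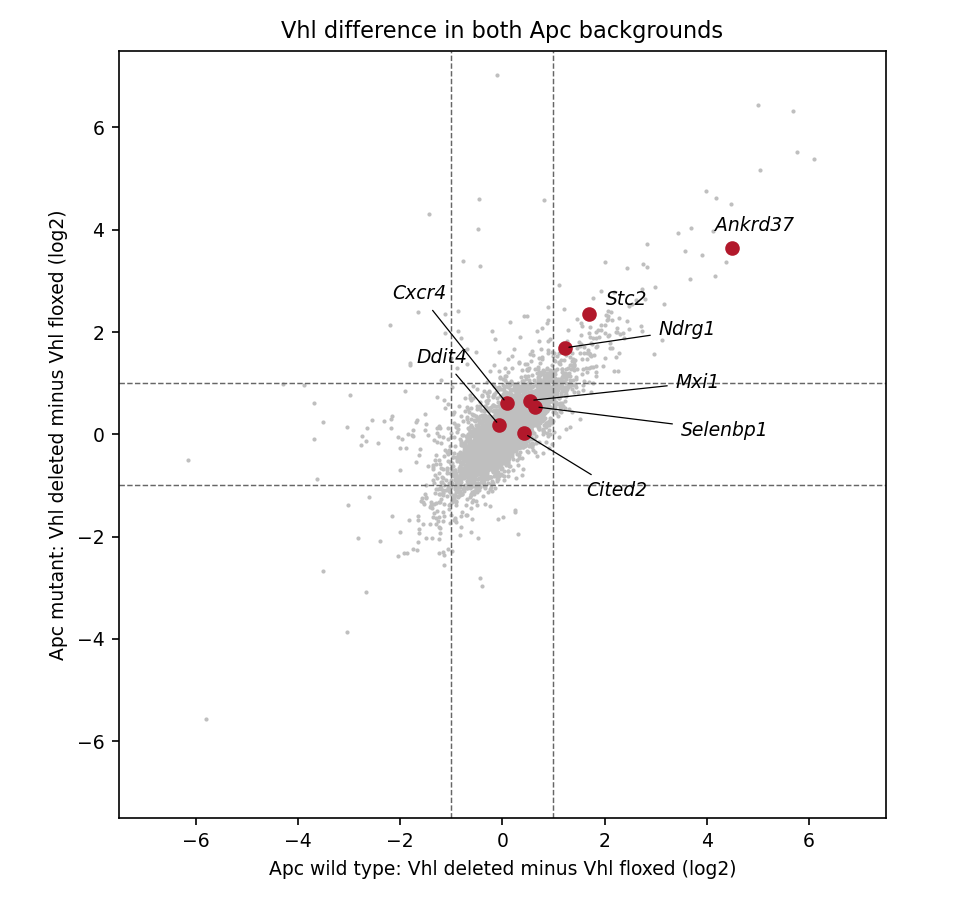
Vhl deleted minus Vhl floxed log2 value on wild-type Apc (x axis) and on mutant Apc (y axis) for 11871 genes (grey) and the 8 genes (red). Dashed lines mark a 2-fold difference. Ankrd37, Stc2 and Ndrg1 lie past it on both axes, and the other 5 genes lie inside it on both.

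Ankrd37 encodes a small protein of ankyrin repeats that human cells make more of in hypoxia under direct HIF control. It read 11.83 in the Vhl deleted array and 7.34 in its floxed counterpart, and with the Apc mutation 11.73 in the deleted and 8.08 in the floxed array. The deleted arrays were nearly alike, and the 2 floxed arrays lay more than 3 log2 units below them. The difference was 4.49 on wild-type Apc, the 6th highest of 11871 genes, and 3.65 on mutant Apc, the 18th highest. The gap of -0.84 between these differences lay outside the range of -0.53 to 0.67 that held the middle 95% of genes, and the Apc mutant array differed from the wild-type one by -0.10 with deleted and by 0.74 with floxed Vhl. Ankrd37 has a single probe set, so no second probe set checks these values. Of the FEM1 genes, whose mouse family member Fem1b marks ANKRD37 for degradation, all 3 were above the floor and 0 was 2-fold apart. Most of all 11871 genes were likewise not 2-fold apart. Fem1b itself differed by 0.09 on wild-type and 0.20 on mutant Apc.

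Stc2 encodes stanniocalcin 2, a secreted glycoprotein that blocks the proteinase PAPP-A, which would otherwise free insulin-like growth factors from IGFBP4. Its probe set with the highest mean read 10.01 in the Vhl deleted and 8.31 in the Vhl floxed array. With the Apc mutation it read 10.30 in the deleted and 7.94 in the floxed array. Both deleted arrays lay above both floxed arrays, an order whose share over all genes was not counted. The differences were 1.70 and 2.36, the 92nd and 47th highest of all genes. The 3 probe sets gave 1.70 to 2.37 on wild-type and 2.36 to 2.90 on mutant Apc, so each was at least 2-fold higher in both. For scale, probe sets of the same gene spanned a median of 0.18 in either Vhl comparison, over 5258 genes with several probe sets above the floor. The span of Stc2 on wild-type Apc was also wider than the 95th percentile of 0.59, while every probe set kept the direction.

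The other stanniocalcin, Stc1, read 6.38 in the Vhl deleted and 5.42 in the Vhl floxed array, and with the Apc mutation 6.78 in the deleted and 5.59 in the floxed array. Its differences of 0.96 and 1.20 ran the same way as those of Stc2, from values around the floor. Pappa, the proteinase that stanniocalcins inhibit, was at least 2-fold higher on both backgrounds, by 1.24 and 1.00, also with floxed arrays under the floor at 5.42 and 5.55. Igfbp4, its substrate, differed by 0.89 and 0.86. In the list of 11 genes of stanniocalcins, PAPP-A and insulin-like growth factors, all above the floor, 3 passed 2-fold upward on wild-type Apc and 2 on mutant Apc, 0 passed it downward, and the medians were 0.86 and 0.44. Many of these genes are known from stromal cells, and their source in the scraped tissue was not measured.

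Ndrg1 encodes a cytoplasmic protein of the N-myc downstream-regulated family that is induced by hypoxia and metal stress and marks differentiated epithelium. Its highest probe set read 11.98 in the Vhl deleted and 10.76 in the Vhl floxed array. In the Apc mutant pair it read 12.37 in the deleted and 10.68 in the floxed array. Both deleted arrays were again the higher ones. The differences of 1.22 and 1.69 ranked 178th and 115th of all genes. All 5 probe sets pointed the same way and past 2-fold, with differences of 1.15 to 1.58 on wild-type and 1.54 to 1.70 on mutant Apc.

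Relatives of Ndrg1 did not follow it as a family. Ndrg2 read 12.02 in the Vhl deleted and 10.86 in the Vhl floxed array, and with the Apc mutation 11.92 in the deleted and 11.16 in the floxed array, so that it differed by 1.15 and 0.76. Ndrg3 differed by -0.38 and -0.48 and Ndrg4 by -0.27 and -0.51. Both were thus lower by value, and neither reached 2-fold.

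Mxi1 encodes a partner of MAX that binds the same DNA sites as MYC and represses them, and in human kidney cancer cells without VHL it is induced by HIF. The probe set with the highest mean read 10.75 in the Vhl deleted and 10.22 in the Vhl floxed array, and with the Apc mutation 10.73 in the deleted and 10.06 in the floxed array. The second probe set read 8.62 in the Vhl deleted and 7.92 in the Vhl floxed array, and with the Apc mutation 8.67 in the deleted and 8.19 in the floxed array. In both probe sets the deleted arrays were the higher ones. The differences were 0.54 and 0.66 for the first, or 1.45-fold and 1.58-fold, and 0.70 and 0.49 for the second, inside the middle 95% of all genes, which ran from -0.81 to 0.96 on wild-type and from -0.82 to 1.07 on mutant Apc. The list of the MYC and MAX network has 12 genes, all above the floor. On wild-type and mutant Apc 0 of them were 2-fold higher, beside 2.27% and 2.82% of all genes. Mlxipl, the glucose-sensing factor ChREBP, was 2-fold lower on wild-type Apc at -1.01 and differed by -0.89 on mutant Apc. Myc differed by -0.10 and 0.01 and Max by -0.51 and -0.78. The list medians were -0.08 and -0.02.

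Ddit4 encodes REDD1, which releases the TSC complex to switch off mTORC1 in hypoxia and after glucocorticoids. It read 10.54 in the Vhl deleted and 10.60 in the Vhl floxed array, and with the Apc mutation 10.80 in the deleted and 10.63 in the floxed array. All 4 arrays lay within 0.26 of each other. The differences were -0.06 and 0.17, and 81.5% of genes on wild-type Apc and 52% on mutant Apc had a larger difference in either direction. The gene has 1 probe set, and all 4 values lay well above the floor. Its relative Ddit4l lay under the floor in all 4 arrays.

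The mTORC1 pathway, on which Ddit4 acts, works by phosphorylation, which was not measured, so the values here are transcript levels of its components. Of 17 listed genes of mTORC1 and its brakes, 15 were above the floor, with medians of -0.06 and 0.01. By value 3 were higher and 12 lower on wild-type Apc, and 8 higher and 7 lower on mutant Apc. Eif4ebp1, a translation repressor that mTORC1 phosphorylates, was the 1 gene 2-fold higher on wild-type Apc, by 1.05, and differed by 0.90 on mutant Apc. Tsc1 differed by -0.27 and -0.33, Tsc2 by -0.01 and -0.11, and Mtor by -0.12 and -0.16. Targets of the integrated stress response, a programme driven by ATF4 that also controls Ddit4 and Stc2, had medians of 0.30 and 0.61 over 14 of 16 genes above the floor. Of these, 2 were at least 2-fold higher on wild-type and 3 on mutant Apc, and the 2 that were so on both were the serine and one-carbon enzymes Shmt2 (2.47 and 2.51) and Psat1 (1.03 and 1.02). By value 9 of the 14 were higher and 5 lower on wild-type Apc, and 11 higher and 3 lower on mutant Apc. Atf3 differed by 0.58 and 0.69 and Asns by 0.41 and 0.79. Atf4 differed by -0.24 and -0.04, Ddit3 by -0.43 and 0.01, and Trib3 by 0.09 and -0.25.

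Cited2 encodes a small nuclear protein that occupies the site on p300 and CBP to which HIF alpha subunits bind, and is itself a HIF target. Its highest probe set read 11.33 in the Vhl deleted, 10.91 in the Vhl floxed, 10.98 in the Vhl deleted Apc mutant and 10.96 in its Vhl floxed counterpart. One array, Vhl deleted, stood above the other 3, which lay within 0.07 of each other. The differences were 0.43 and 0.02 for this probe set and 0.42 and 0.23 for the other. None of them left the middle 95% of genes. Whether the effect of Vhl deletion differs between the Apc backgrounds was not tested.

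Cited1 is a relative that also binds p300 and CBP. It read 5.97 in the Vhl deleted and 3.52 in the Vhl floxed array, and with the Apc mutation 7.45 in the deleted and 4.19 in the floxed array. Only the Vhl deleted Apc mutant array was above the floor of 6. The differences were 2.45 on wild-type Apc, between values that both lay under the floor, and 3.26 on mutant Apc, where the floxed array did. Cited4 differed by -0.50 and -0.37. Of 12 listed coactivators and transcription factors that CITED2 works with, 9 were above the floor and 8 of these were lower by value on both backgrounds, with medians of -0.17 and -0.24. Hif1a was the only 1 of them past 2-fold, at -1.92 and -2.33. Ep300 differed by -0.38 and -0.31 and Crebbp by -0.14 and -0.19.

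Selenbp1 encodes methanethiol oxidase, an enzyme that yields hydrogen sulfide and peroxide, which is abundant in colonic epithelium and reduced in human colorectal cancer. The probe set with the highest mean read 14.05 in the Vhl deleted and 13.41 in the Vhl floxed array, and with the Apc mutation 14.07 in the deleted and 13.53 in the floxed array. This probe set is listed under Selenbp1 on the platform, but its accession belongs to Selenbp2 in RefSeq, so it may not tell these near-identical genes apart. The other probe set carries the accession of Selenbp1 and read 13.90 in the Vhl deleted, 13.38 in the Vhl floxed, 13.86 in the Vhl deleted Apc mutant and 13.42 in its Vhl floxed counterpart. Both probe sets were higher in both deleted arrays, by 0.64 and 0.54 for the first and 0.52 and 0.45 for the second. Selenbp2 is also a liver gene, and hepatocyte markers were high in the Vhl floxed array. With the Vhl floxed Apc mutant array in its place the Selenbp1 difference was 0.52, but that exchange also changes Apc status. The part of liver RNA in the Selenbp1 values was not tested.

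Sulfide and selenoprotein genes around Selenbp1 were near level as a list. All 14 were above the floor, 0 was 2-fold apart on either background, and the medians were -0.01 and 0.08. Of all genes, 2.27% were 2-fold higher and 1.60% lower on wild-type Apc, and 2.82% and 1.52% on mutant Apc. Gpx1, whose product binds SELENBP1, differed by 0.00 and -0.01. The sulfide oxidase gene Sqor read 12.68 in all 4 arrays.

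Cxcr4 encodes the receptor for the chemokine CXCL12 and is a HIF target in human kidney cancer cells. It read 6.97 in the Vhl deleted, 6.89 in the Vhl floxed, 6.93 in the Vhl deleted Apc mutant array, and 6.32 in its Vhl floxed counterpart. Here 3 arrays were level and the Vhl floxed Apc mutant array alone was low. The Vhl difference was thus 0.08 on wild-type and 0.61 on mutant Apc, and exchanging the 2 floxed arrays turned this round, to 0.65 and 0.04. The signal is close to the floor, where RMA understates differences, and there is no second probe set. In leukocytes Cxcr4 is abundant, and lymphocyte markers (7 of 10 above the floor, Cd8a and Cd3g under it) had summed linear levels of 1700 and 1363 in the Vhl deleted and Vhl deleted Apc mutant arrays, against 1350 and 1326 in the Vhl floxed and Vhl floxed Apc mutant arrays. Ptprc, the CD45 gene of all leukocytes, makes up much of these sums and differed by 0.58 on wild-type and 0.27 on mutant Apc. The medians of the 7 markers were 0.13 and -0.19, with 6 higher and 1 lower on wild-type Apc and 3 higher and 4 lower on mutant Apc. Macrophage and dendritic cell markers, 7 of 7 above the floor, summed to 6185 and 5526 in the 2 deleted arrays, against 4194 and 4724 in the 2 floxed arrays. The part of these cells in the Cxcr4 values was not tested.

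Of 11 genes of the CXCR4 axis, all above the floor, Mif, a cytokine that also binds CXCR4, was the 1 gene 2-fold higher on both backgrounds, by 1.68 and 1.65. The ligand gene Cxcl12 differed by 0.35 and 0.10. Ackr3, the scavenger receptor of CXCL12, differed by 0.64 and 0.20. Rgs1, a brake on chemokine signalling in lymphocytes, differed by -1.05 and -0.32. The list medians were 0.42 and 0.20.

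The wider set of HIF and hypoxia targets gives the setting for these 8 genes. Of 40 others listed, 36 had a probe set and all 36 passed the floor. On wild-type Apc 16 passed 2-fold upward and 0 downward, on mutant Apc likewise 16 and 0, and 15 passed it upward on both. The medians were 0.81 and 0.87, above the 0.59 and 0.63 of the 8 genes. By the mean of both differences Ankrd37, at 4.07, stood below Ak4 (4.38) and above Egln3 (3.35), all with floxed arrays above the floor. The means of Ndufa4l2 (5.64), the lactate exporter gene Slc16a3 (2.79) and Pfkfb3 (2.27), which makes an allosteric activator of glycolysis, rest on floxed values under the floor, in 1 array for Ndufa4l2 and both for the others, and are not ranked here. Stc2 at 2.03 and Ndrg1 at 1.46 lay among the 2-fold members, while Mxi1 at 0.60 lay close to Ldha at 0.64, Kdm3a at 0.63 and Slc2a1 at 0.59. Ddit4 at 0.06 lay beside Insig2, also at 0.06. The list thus held genes as level as Ddit4. Ak4 differed more than Ankrd37 by the mean, though less on wild-type Apc, by 3.99 against 4.49. On mutant Apc, where both its arrays were above the floor, Ndufa4l2 also differed more than Ankrd37, by 5.52 against 3.65.

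**Figure D3:**
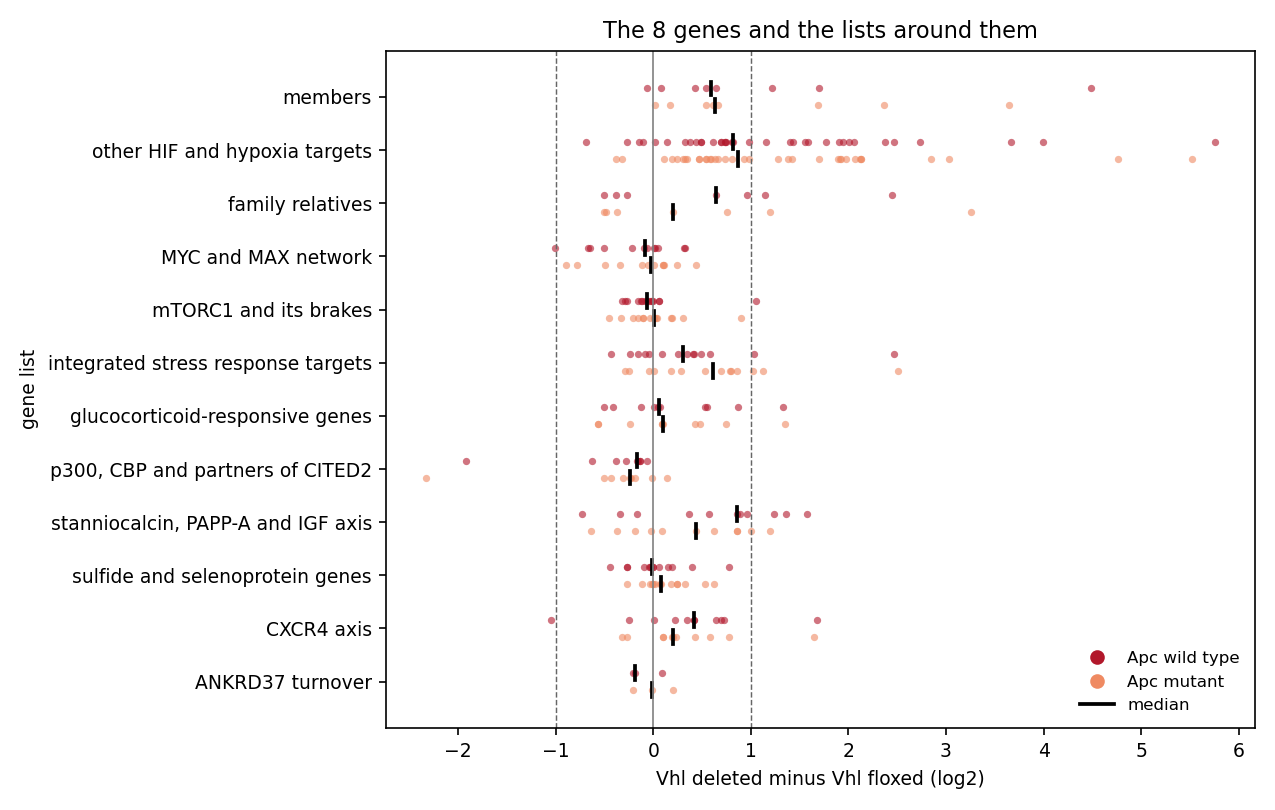
Vhl deleted minus Vhl floxed log2 difference of each gene above the floor on wild-type Apc (red) and mutant Apc (orange), for the 8 genes (members, top) and the lists around them. Black bars are medians and dashed lines a 2-fold difference. The 8 genes and the other HIF targets extend to the right, while the mTORC1, MYC and sulfide lists centre on 0.

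The Apc mutation went with differences under 2-fold in all 8 genes, as in nearly all genes of the array. With deleted Vhl, 0 of the 8 passed 2-fold either way, beside 0.202% of all genes upward and 0.118% downward. With floxed Vhl, again 0 of the 8 passed it, beside 0.118% upward and 0.901% downward. The medians of the 8 genes were 0.00 with deleted and -0.02 with floxed Vhl, and 4 of 8 were higher by value in each.

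Ndrg1 was the most different with deleted Vhl, by 0.39, and all 5 of its probe sets were higher, by 0.26 to 0.49. Cited2 differed by -0.35 there and by -0.18 in its second probe set. With floxed Vhl, Ankrd37 differed by 0.74, the 45th highest of 11871 genes, and Cxcr4 by -0.57. Stc2 was lower there in all 3 probe sets, by -0.33 to -0.37. The middle 95% of all genes ran from -0.42 to 0.37 with deleted Vhl and from -0.57 to 0.43 with floxed Vhl. Mxi1, Ddit4, Stc2, Cited2 and Selenbp1 lay inside both ranges by their highest-mean probe sets.

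**Figure D4:**
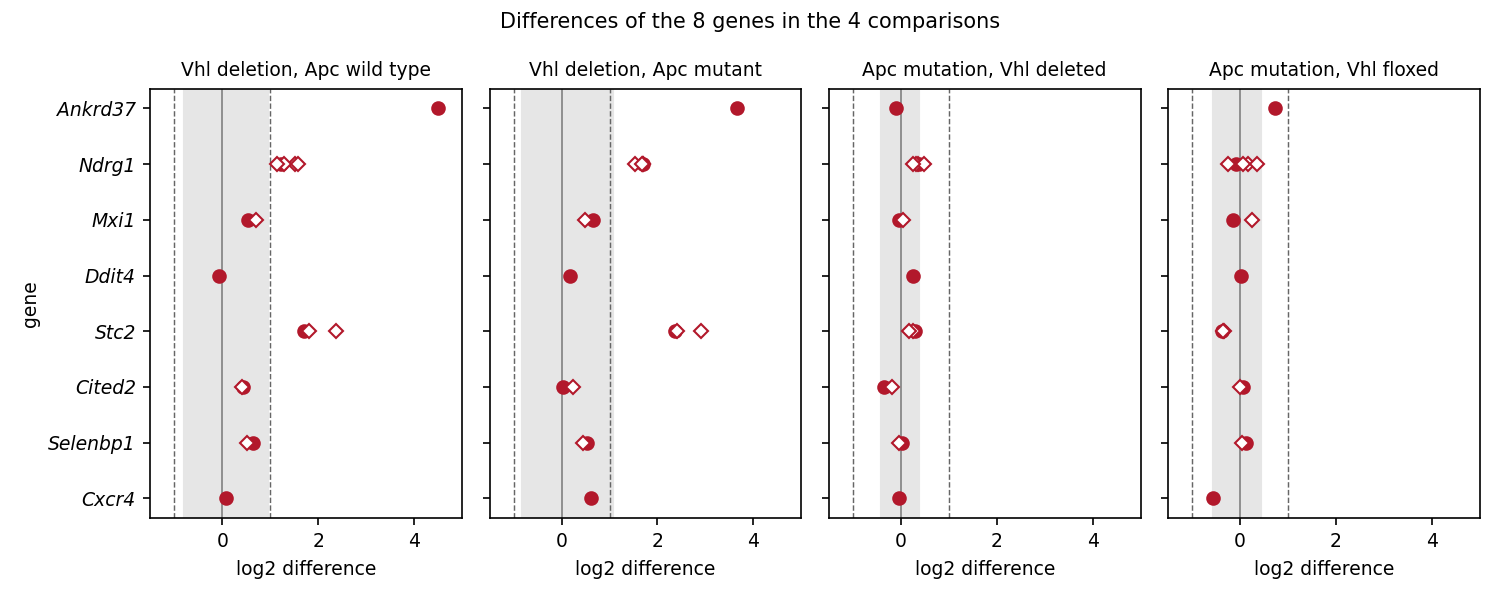
Log2 difference of every probe set of the 8 genes in the 4 comparisons, each named above its panel. Filled circles are the highest-mean probe sets and open diamonds the others. The grey band holds the middle 95% of all 11871 genes and dashed lines mark 2-fold. In the Vhl panels Ankrd37, Stc2 and Ndrg1 lie right of the band, and in the Apc panels no probe set passes a dashed line.

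The genes with the most similar profile were found by the root mean square distance between the 4 values after each gene's own mean was taken off, among 11438 named genes. With only 4 arrays, 2 of them deleted and 2 floxed, many genes share a profile, and the small distances of genes that hardly vary mean little. For Ankrd37 the nearest were the metalloreductase Steap4, at a distance of 0.127 on the log2 scale, the manganese exporter Slc30a10 at 0.221 and Clca4b at 0.337. Those of Ndrg1 were Il17rb, a receptor of the cytokine IL-25, at 0.059, the pattern receptor Tlr2 at 0.064 and the metal importer Slc39a14 at 0.076. For Stc2 they were Rnf225 at 0.079, the early response gene Ier3 at 0.089 and the cartilage proteoglycan Acan at 0.108, and both Rnf225 and Acan read under the floor in the floxed arrays. The nearest to Mxi1 was the polyamine oxidase Smox at 0.006, with differences of 0.53 and 0.67, then Fermt3 and Fam111a. Selenbp1 was nearest to Epb41l4b at 0.009, then Sox17 and Lmo2. Cited2 was nearest to the channel gene Kcnj8 at 0.014, then Aspa and Tm2d1. Ddit4, which spanned 0.26 over the arrays, was nearest to Acrbp at 0.013, then Nkd1 and Gpr107. Cxcr4 was nearest to Zfp820 at 0.027, then the extracellular superoxide dismutase Sod3 and Pkp4.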

How the data were processed

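Total RNA of colon mucosa was hybridised to 1 Affymetrix mouse array per genotype. The deposited values are on the log2 scale, 1 per probe set. The submitters' processing notes name affy and RMA without versions. RMA brings arrays to one distribution, so a shift of all transcripts would not be seen, and it compresses differences near background. Array medians were 6.05 to 6.07. Probe sets were named by the platform annotation, where 34958 of 45101 had a single symbol. Each gene took its probe set with the highest mean, and genes reaching 6 in at least 1 array were kept. A difference is the log2 value of one array less that of another, and 2-fold is a difference of 1. The number of arrays limits the precision. Counting was checked on simulated data. The members and lists were chosen with earlier results of these data known. The rule for named genes took the members, their family relatives, the 3 nearest profiles of each member, Vhl, Xist and Alb, and per list up to 5 genes at least 2-fold apart in both Vhl comparisons. Other list genes were named after their values were seen. Alternatives were the floor, the probe set rule, cyclic loess (limma 3.58.1 in R 4.3.3), the threshold and an exchange of floxed arrays. Python 3.11.15 was used with pandas 2.3.3, numpy 2.4.6 and matplotlib 3.10.9.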

Additional observations from a re-analysis of the deposited data

Results flagged for a closer look

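For some genes the same contrast ran in opposite directions in the 2 backgrounds, each with 1 array per genotype, and the difference between backgrounds was not tested. Ddit4 was the only 1 of the 8 to do so for Vhl deletion, with 0.17 on mutant and -0.06 on wild-type Apc. For the Apc mutation, Ankrd37 differed by -0.10 with deleted and 0.74 with floxed Vhl. Ndrg1 differed by 0.39 with deleted and -0.08 with floxed Vhl, Stc2 by 0.29 with deleted and -0.37 with floxed Vhl, and Cited2 by -0.35 with deleted and 0.06 with floxed Vhl. For Ndrg1, 3 of 5 probe sets were higher in both and so did not share the opposite signs, whereas all 3 of Stc2 did. Both Cited2 probe sets shared them too.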

How the results depend on the processing

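Ankrd37, Ndrg1 and Stc2 made up the 3 genes at least 2-fold higher in each Vhl comparison and in both together without a floor, with a floor of 7, with values under 6 raised to 6, with the mean over probe sets, without probe sets that can cross-hybridise, after cyclic loess and with the 2 floxed arrays exchanged, an alternative chosen after seeing the data. At a 1.5-fold threshold 5 of the 8 genes were apart for Vhl deletion on mutant Apc, where Mxi1 and Cxcr4 joined, and 4 on wild-type Apc, where Selenbp1 joined, with 3 still shared. For the Apc mutation with floxed Vhl, 1 gene, Ankrd37, passed 1.5-fold, and 0 did with deleted Vhl. Over all genes that threshold gave 738 higher and 603 lower for Vhl deletion on wild-type Apc, against 270 and 190 at 2-fold, 854 and 611 on mutant Apc, against 335 and 181, and 525 and 324 in both, against 187 and 87. For the Apc mutation it gave 86 and 94 with deleted Vhl, against 24 and 14, and 125 and 280 with floxed Vhl, against 14 and 107. Of 204 gene-level differences recomputed under the other alternatives, 197 kept their sign and their side of 2-fold, and 7 small Apc differences of Ndrg1, Mxi1 and Selenbp1 changed sign within 0.15 of 0. Of these 7, 4 changed with the mean over probe sets, 2 without probe sets that can cross-hybridise and 1 after cyclic loess. Many of the 197 could not have moved. The floor only decides which genes are kept, and no array value of the 8 genes was below 6.32, so lifting low values left them alone. The floor alternatives, 32, 28 and 32 of the 204 in the order given above, were thus no check on these differences or on the count of 3 genes. Ankrd37, Ddit4 and Cxcr4 have 1 probe set each, so the probe set rules could not change them either. Cxcr4 has no value at a floor of 7. No paired analysis was possible because each genotype has 1 array.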

Other observations

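Genes that respond to glucocorticoids, which also induce Ddit4, were all 10 above the floor, with medians of 0.06 on wild-type and 0.10 on mutant Apc for Vhl deletion. Fkbp5 and Tsc22d3, widely used reporters of the hormone receptor, differed by 0.07 and 0.09 and by 0.01 and 0.09. Dusp1, a phosphatase of stress kinases, was the 1 gene at least 2-fold higher on both backgrounds, by 1.33 and 1.35. The cell cycle inhibitor gene Cdkn1a differed by 0.87 and 0.75.

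Nupr1 and Car12 were, like Cxcr4, among the listed genes that were lowest in the Vhl floxed Apc mutant array. Others lowest in that array included Adipoq, Spdef, Stc2 and Mxi1, so the pattern is not particular to them. Nupr1 and Car12 were picked for this after their values were seen. Nupr1, a stress-induced chromatin protein, read 10.18 there and 11.16 to 11.29 in the other arrays. Car12, a carbonic anhydrase, read 6.48 there and 7.22 to 7.91 in the other arrays.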
